A study of Mus musculus with 12 samples.

Results

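Solute carriers are membrane proteins that move amino acids, sugars, ions, metals and other small molecules into, out of and within cells, and they are numbered in families by sequence and substrate. The genes described here were chosen from the deposited expression table by symbol (Slc, a family number, the letter a and a member number), leaving out the mitochondrial carriers of family Slc25 and the insulin-responsive glucose transporter gene Slc2a4. A level above 5 TPM in at least 1 of the 12 libraries was also required. TPM, transcripts scaled by their length and by the library, lets levels of different genes be set side by side. The symbols of 297 genes fitted the pattern and 99 of them passed the level, out of 10481 genes of any name that passed it and 36008 in the table. The remaining 198 stayed at or under 5 TPM, and 16 of those were listed at 0 in every library. Since the levels chose the members, their levels are given as a description, and only the differences between groups were tested.

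RNA was taken from 2 muscles, gastrocnemius and quadriceps, in each of 6 female mice, aged 30 weeks when the study began. Ground mice M02, M03 and M08 stayed on Earth for 9 weeks in the same hardware as flight mice M11, M12 and M20, which spent that time on the International Space Station. Every mouse, ground or flight, had received subcutaneous injections of PBS as a control animal of a bone therapy study, and its hind limb muscles were dissected from a frozen and thawed carcass. The sample labels give the strain as C57BL/6 and the paper as BALB/c, and no comparison used it. There were thus 12 libraries in 4 groups of 3, with a muscle pair from each mouse, and p-values measure the spread between these mice, 3 a group.

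Muscle fibers import creatine, taurine, carnitine, amino acids, glucose and fatty acids, export lactate, and keep gradients of sodium, potassium, chloride and calcium across the sarcolemma. Many solute carriers draw on the sodium gradient that the sodium-potassium pump maintains, some exchange a solute for another, and some let a solute pass down its own gradient. Monocarboxylate carriers of family 16 move lactate with protons, amino acid exchangers of family 7 work as a light chain bound to a heavy chain of family 3, and sodium-calcium exchangers of family 8 remove calcium from the cytosol.

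The values of a library summed to between 923295 and 966638 TPM, and the 99 genes held 0.179% to 0.205% of that sum. The 6 skeletal muscle markers checked were all present. Their sum was 77299 to 83158 TPM in the gastrocnemius and 100543 to 112824 TPM in the quadriceps, so the muscles did not overlap. Of the 6, Acta1 alone did overlap between the muscles (15946 to 20179 TPM against 16714 to 20633 TPM). The separation came from the others, such as the fast troponin gene Tnnt3 (ground means of 14670 and 21224 TPM). The sum is therefore no plain measure of muscle content. Of the 7 slow fiber markers, all above 5 TPM, the sum was 1716 to 2094 TPM in ground gastrocnemius, 1050 to 1268 in flight gastrocnemius, 885 to 2193 in ground quadriceps and 1207 to 1665 in flight quadriceps. The 8 adipocyte markers, 7 of them above 5 TPM and none at 0 everywhere (leptin was listed at 0 in 1 library), summed to 185 to 269, 191 to 247, 330 to 611 and 212 to 293 TPM in the same order. The 7 Schwann cell markers summed to 150 to 327 TPM in the gastrocnemius and 58.8 to 93.2 TPM in the quadriceps. In bulk muscle, fewer cells of a type and less RNA per cell cannot be told apart. The quadriceps library of ground mouse M08 listed 18172 genes above 0 and the others 20291 to 21265.

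The 99 genes fell into 39 families. By family they carried amino acids and peptides (22 genes), ions (23), phosphate and metals (20), other organic solutes (16), sugars and other fuels (9), or solutes between internal compartments such as the Golgi, endoplasmic reticulum and lysosome (9). The set is therefore wider than the plasma membrane and secretory vesicles. By symbol, 3 of the 99 are not transporters: Slc9a3r2 is a scaffold protein that binds sodium-proton exchangers, and Slc4a1ap and Slc7a6os are named after a neighbour or partner. The level was above 5 TPM in all 12 libraries for 68 genes and in libraries of 1 group only for 6. The median of the mean levels was 9.27 TPM, against 14.0 TPM over all genes above the threshold. Most of the abundance lay in few genes, since the 25 of highest mean held 65.5% of the summed TPM of the 99. Just inside the threshold lay Slc22a23, Slc1a1 and Slc46a3, with highest values of 5.25, 5.26 and 5.32 TPM, and just outside lay Slc2a1, Slc36a1 and Slc27a4, with 4.96, 4.93 and 4.84 TPM. Of other transporters well known in muscle, Slc2a3, Slc7a5, Slc19a2 and Slc30a1 also stayed below it, with highest values of 2.96, 1.39, 3.84 and 2.10 TPM.

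**Figure D1:**
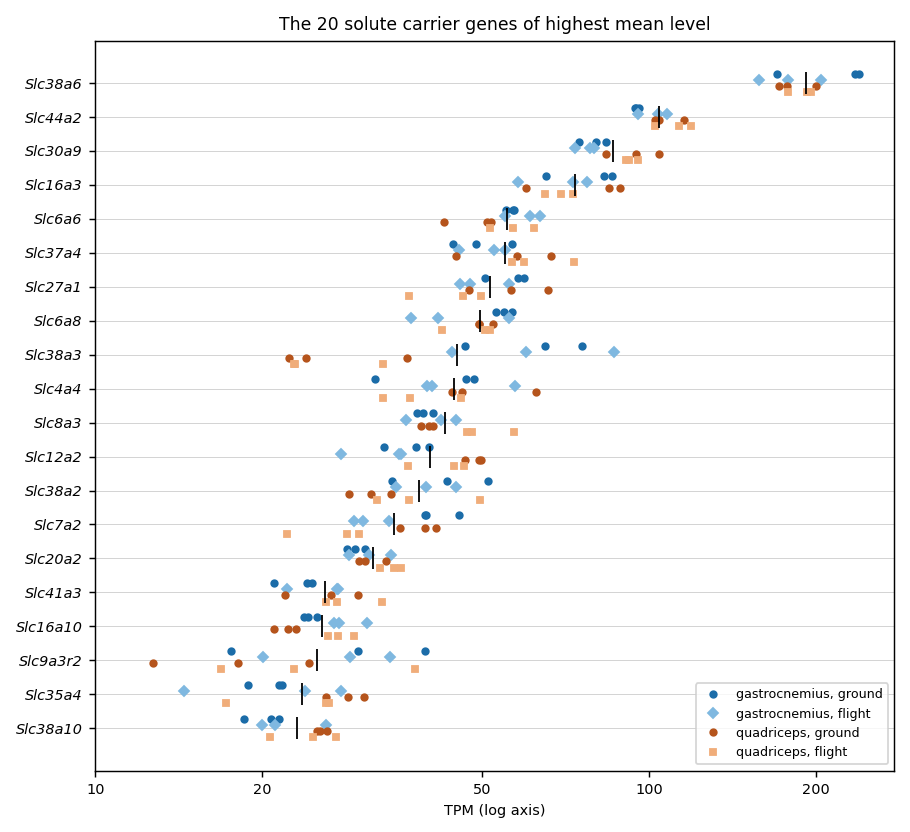
Level in TPM (log axis) of the 20 solute carrier genes of highest mean, 1 point per library, with the groups marked by color and shape. Slc38a6 lies highest, from 158 to 240 TPM, and Slc38a3 has gastrocnemius points (44.1 to 86.4 TPM) to the right of its quadriceps points (22.4 to 36.5 TPM).

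Genes of amino acid and peptide families held 27.6% of the summed level, a mean of 496 TPM, of which Slc38a6 alone held 192 TPM. The highest single value of any member was that of Slc38a6, a member of the neutral amino acid family 38, with a mean of 192 TPM and a range of 158 to 240 TPM. Its level, and with it the share of these families, is uncertain. Of the 31-base words in its annotated transcripts, 31.3% also occur in transcripts of other genes on the same strand. On the opposite strand it was 39.2%. Other members of family 38 were Slc38a3, a sodium-coupled glutamine transporter (45.0 TPM on average), Slc38a2, a neutral amino acid transporter known to respond to amino acid supply (38.4 TPM), Slc38a10 (23.1 TPM) and Slc38a4 (16.2 TPM). Slc7a2, a carrier of arginine and lysine, had 34.6 TPM. The exchanger heavy chain gene Slc3a2 had 20.2 TPM, while the light chains Slc7a6, Slc7a8, Slc7a10 and Slc7a11 had 8.40, 8.96, 3.62 and 5.01 TPM. The glutamine carrier Slc1a5 had 15.3 TPM and the glutamate carrier Slc1a3 had 8.83 TPM. The lysosomal peptide and histidine carrier Slc15a4 had 12.7 TPM and the proton-coupled carrier Slc36a2, lowest of the 99 by mean, had 2.77 TPM.

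Carriers of organic solutes included the genes that supply muscle with osmolytes and energy buffers. The taurine transporter gene Slc6a6 had group means of 56.4 ± 0.954, 59.9 ± 4.44, 48.5 ± 5.08 and 56.8 ± 5.12 TPM (SD, n = 3) in ground gastrocnemius, flight gastrocnemius, ground quadriceps and flight quadriceps. The creatine transporter gene Slc6a8 had 54.8 ± 1.85, 44.9 ± 9.84, 50.3 ± 1.67 and 48.1 ± 5.14 TPM in that order. The choline transporter-like gene Slc44a2 was second in level of all 99, with a mean of 104 TPM. The nucleoside transporters Slc29a1 and Slc28a2 had 21.2 and 7.91 TPM, the carnitine transporter Slc22a5 had 6.43 TPM and the ascorbate transporter Slc23a2 had 9.62 TPM. The levels of Slc28a2 and Slc22a5 are uncertain too, since 46.3% and 37.8% of their 31-base words occur in other genes.

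Among fuels, the gene of the lactate exporter of glycolytic fibers, Slc16a3, had 77.9 ± 11.1, 69.5 ± 10.1, 77.8 ± 15.5 and 69.1 ± 3.88 TPM (SD, n = 3) in the same order of groups. The fatty acid transport protein gene Slc27a1 had 56.1 ± 4.86, 49.6 ± 5.42, 56.5 ± 9.21 and 44.2 ± 6.66 TPM. Slc16a10, whose family moves monocarboxylates but which itself carries aromatic amino acids, had a mean of 25.7 TPM, and the lactate carrier of oxidative fibers, Slc16a1, had 9.27 TPM. The facilitated hexose transporters Slc2a12 and Slc2a8 had 6.73 and 4.28 TPM. Of the 9 genes for internal compartments, Slc37a4, the glucose-6-phosphate transporter of the endoplasmic reticulum, stood first with 55.1 TPM, followed by Slc35a4 with 23.6 TPM, of whose words 16.8% are shared with another gene.

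Phosphate and metal carriers were led by the zinc transporter gene Slc30a9 with 85.9 TPM. The sodium-phosphate cotransporters Slc20a2 and Slc20a1, the receptors of some retroviruses, had 31.7 and 19.1 TPM. The magnesium carriers Slc41a3 and Slc41a1 had 26.0 and 13.7 TPM, the iron importer Slc11a2 had 12.8 TPM and the iron exporter Slc40a1 had 9.77 TPM. The zinc importers included Slc39a7 of the endoplasmic reticulum (21.5 TPM), Slc39a1 (17.2 TPM), Slc39a13 (14.1 TPM) and Slc39a14 (9.70 TPM). For Slc39a7, 76.8% of the words are shared with the overlapping gene Gm20427, and for Slc39a1 27.7% are shared with other genes, so that these levels may include reads of those genes. In all, 8 of the 99 genes shared over 10% of their words with other genes on the same strand and 70 shared under 1%. On the opposite strand, 10 genes shared over 10%.

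Ion carriers held 19.4% of the summed level. The sodium-bicarbonate cotransporter gene Slc4a4 had a mean of 44.4 TPM, the chloride importer Slc12a2 (the sodium-potassium-chloride cotransporter) had 40.3 TPM and the potassium-chloride cotransporters Slc12a7 and Slc12a4 had 9.07 and 9.02 TPM. The Golgi sodium-proton exchanger Slc9a8 had 18.5 TPM. Sodium-calcium exchange was represented by Slc8a3, the exchanger typical of skeletal muscle and brain, with 42.8 TPM, and by Slc8a1, the exchanger typical of the heart, with 12.5 TPM.

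Slc8a3 (chr12:81197915-81333180, minus strand, GRCm38) has alternative exons, which are printed because the splicing results return to them. Sodium-calcium exchanger genes carry a mutually exclusive exon pair in the part coding for the intracellular regulatory loop. In Slc8a3 the upstream exon, at chr12:81216721-81216827, has 107 bases and is in 1 annotated transcript, and the other, at chr12:81214066-81214169, has 104 bases and is in 3. The sequences are given 5′ to 3′ from GRCm38 on the minus strand, with capitals for the bases that match in a global alignment of the pair.
Slc8a3 exon of 107 bases: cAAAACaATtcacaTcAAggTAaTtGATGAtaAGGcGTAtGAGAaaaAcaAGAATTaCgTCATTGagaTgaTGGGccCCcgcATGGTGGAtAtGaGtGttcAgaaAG
Slc8a3 exon of 104 bases: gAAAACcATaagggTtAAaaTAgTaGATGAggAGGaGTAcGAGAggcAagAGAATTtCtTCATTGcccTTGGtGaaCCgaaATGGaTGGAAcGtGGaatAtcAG
The pair matched in 64 of 109 aligned columns (58.7%), and both lengths leave a remainder of 2 on division by 3. Downstream lies a cassette exon of 18 bases at chr12:81209454-81209471, which is in 2 annotated transcripts.
Slc8a3 exon of 18 bases: cgctcctgttatctccag

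Levels of most members varied by under 2-fold over the 12 libraries. The ratio of the highest to the lowest library had a median of 1.79 over the 99 genes, was under 1.5 for 17 and under 2 for 65, and exceeded 3 for 11. The widest ranges were those of Slc36a2 (0.763 to 5.95 TPM), the neutral amino acid exchanger Slc7a8 (4.19 to 20.1 TPM), Slc38a3 (22.4 to 86.4 TPM), Slc7a10 (1.76 to 6.56 TPM) and the anion exchanger Slc4a3 (3.02 to 11.2 TPM). For Slc7a8 the highest libraries in both muscles came from flight mouse M12, with 14.3 TPM in the gastrocnemius and 20.1 TPM in the quadriceps, while flight mouse M11 had 5.09 and 4.19 TPM.

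The muscles were compared first within mice, since both came from each animal. The glutamine transporter gene Slc38a3 (chr9:107650634-107669530, minus strand) had 75.7, 65.0 and 46.6 TPM in the gastrocnemius of ground mice M02, M03 and M08 and 44.1, 86.4 and 60.0 TPM in that of flight mice M11, M12 and M20. In the quadriceps the same mice had 36.5, 22.4 and 24.1 TPM on the ground and 23.0, 33.0 and 22.9 TPM in flight. Every gastrocnemius value lay above every quadriceps value, and the ratio within a mouse ran from 1.92 to 2.91. The log2 fold change was 1.18 ± 0.0945 (SE, 6 mice, on the log2(TPM + 1) scale used for all fold changes), with a limma adjusted p of 0.000418. In the opposite direction, Slc8a1 (chr17:81373105-81738377, minus strand) had 7.70, 10.2 and 8.98 TPM in ground gastrocnemius and 9.55, 8.60 and 8.78 TPM in flight gastrocnemius. In the quadriceps it had 14.2, 16.7 and 18.1 TPM on the ground and 15.3, 14.0 and 17.8 TPM in flight. Again the muscles did not overlap, with ratios of 0.493 to 0.626 within mice, a log2 fold change of -0.77 ± 0.0744 and a limma adjusted p of 0.000678.

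These were the 2 members, 1 higher and 1 lower in the gastrocnemius, that passed an adjusted p of 0.05 and a 1.5-fold difference within mice, a call made for 3.33% of all genes tested. At that adjusted p and any fold, 17 members differed between the muscles (10 higher and 7 lower in the gastrocnemius), or 17.2% against a background of 29.0%. Of the members, 10 were above 5 TPM in 1 muscle only and so entered the set through the muscle where they were high, and 1 of these 10, Slc26a3, is among the 17. The direction was the same in all 6 mice for 19 members (10 higher, 9 lower), where the background was 31.0%, and 4 of the 19 (Slc22a23, Slc26a3, Slc26a10 and Slc29a2) were above 5 TPM in the gastrocnemius only. The muscle marker sums given above, though not the levels of Acta1, differ between the muscles in the same libraries. So do those of Schwann cell markers (150 to 327 TPM in the gastrocnemius, 58.8 to 93.2 TPM in the quadriceps, without overlap). Those of smooth muscle markers were 107 to 143 TPM in the gastrocnemius and 75.4 to 114 TPM in the quadriceps. The part of these 3 marker lists in the differences between the muscles was not tested.

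The median log2 fold change over all genes was -0.11 within mice, and that of the members was 0.01, with 52 of 99 above 0. When libraries were rescaled so that the median ratio was equal, the members' median was 0.13 and 69 were above 0. These medians and counts of the members include the 10 above 5 TPM in 1 muscle only, whose direction the choice of members favored. The scaling also moved the split over all genes at adjusted p under 0.05, from 483 higher and 2553 lower (15.9% higher) to 1044 higher and 1147 lower (47.6% higher), and that of the members from 10 higher and 7 lower to 19 higher and 3 lower (rescaled background 20.9%). Of these 22 members, Slc22a23, Slc26a3 and Slc29a2 had passed the level in the gastrocnemius only, which leaves 19. Of the calls over 1.5-fold, 34.1% were higher as deposited and 64.6% after rescaling. After rescaling, Slc38a3 was at 1.30 and Slc8a1 at -0.66, and 5 members were called, where the rescaled background was 2.88%. Slc4a3, Slc12a4 and the nucleoside transporter Slc29a2 were added on the higher side, and without Slc29a2 there were 4.

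**Figure D2:**
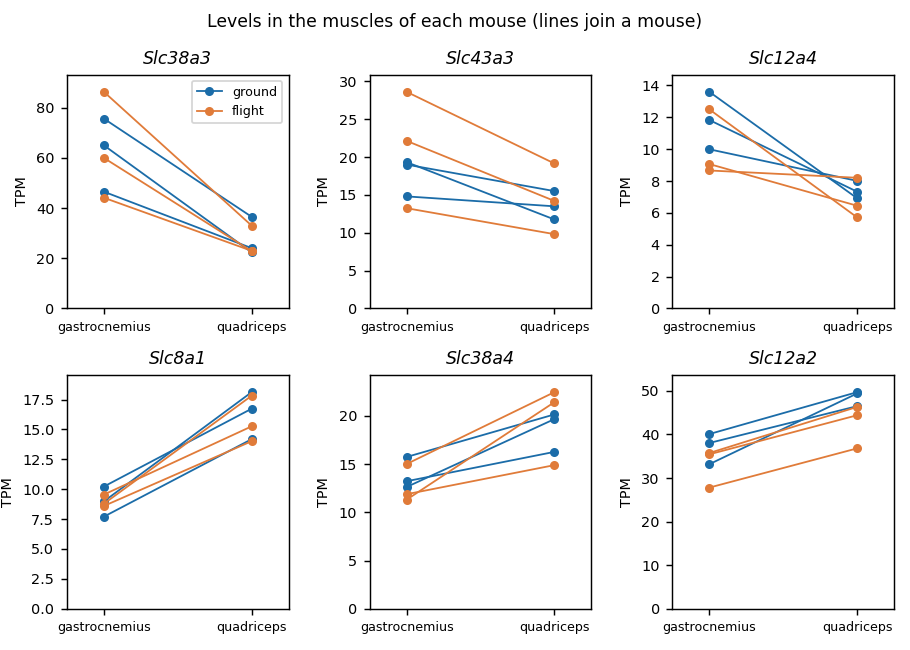
Level in TPM in the gastrocnemius and quadriceps of each of the 6 mice for 6 solute carrier genes, with a line joining the muscles of a mouse and color for ground or flight. Lines fall from left to right in all 6 mice for Slc38a3, Slc43a3 and Slc12a4 and climb in all 6 for Slc8a1, Slc38a4 and Slc12a2.

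Families grouped under amino acids and peptides held 7 of the 17 genes that differed within mice. They passed out of 22 genes in these families, where the background was 29.0% of all genes. Of the 7, Slc43a3 is known to carry purine nucleobases. Apart from Slc38a3, those higher in the gastrocnemius were Slc43a3 (log2 fold change 0.44 ± 0.0824, limma adjusted p = 0.00612), Slc43a2 (0.34 ± 0.0887) and Slc38a2 (0.22 ± 0.0659). Slc38a4 was lower, at -0.49 ± 0.0864 (limma adjusted p = 0.00487), with 11.3 to 15.7 TPM in the gastrocnemius and 14.9 to 22.5 TPM in the quadriceps. Slc38a10 (-0.22 ± 0.0627) and Slc1a3 (-0.32 ± 0.0867) were lower as well, but after rescaling their limma adjusted p was 0.292 and 0.127, and Slc7a2 passed as higher. The ratio of Slc1a3 in gastrocnemius to quadriceps was 0.580, 0.716 and 0.553 in ground mice M02, M03 and M08. In flight mice M11, M12 and M20 the Slc1a3 ratio was 0.834, 1.01 and 1.17. Over the 13 alternatives the limma adjusted p of Slc38a4 stayed at or below 0.0263, while it reached 0.0962 for Slc43a3 (without the mouse block), 0.0812 for Slc43a2 (without mouse M02) and 0.19 for Slc38a2 (without the block). Leaving out 1 mouse took it above 0.05 for Slc43a2 with any mouse but M08, for Slc38a2 with M02, M03, M11 or M20, for Slc1a3 with M02, M08, M11 or M12, and for Slc38a10 with any of the 6. Members of family 38 lay on both sides of 0.

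Families grouped under ions held 8 of the 17, out of 23 genes in these families, where the background was 29.0% of all genes. Among the 8 are Slc9a3r2 and Slc4a1ap, which are not transporters. The chloride importer gene Slc12a2 had 33.2, 40.1 and 38.0 TPM in ground gastrocnemius against 49.4, 49.7 and 46.5 TPM in ground quadriceps, and 35.7, 27.8 and 35.4 TPM against 46.3, 36.8 and 44.4 TPM in flight. It was lower in the gastrocnemius of all 6 mice, with a log2 fold change of -0.37 ± 0.0598 (limma adjusted p = 0.00357; -0.25 after rescaling). The chloride exporter gene Slc12a4 had 13.6, 11.8 and 9.99 TPM in ground gastrocnemius against 6.92, 7.33 and 8.01 TPM in ground quadriceps, and 8.66, 12.5 and 9.06 TPM against 8.20, 5.72 and 6.45 TPM in flight. It was higher in the gastrocnemius of all 6 mice, at 0.55 ± 0.13 (limma adjusted p = 0.0152), just under the 1.5-fold limit, and the adjusted p was 0.0752 with no filter and 0.0559 without mouse M02. The scaffold gene Slc9a3r2 (0.37 ± 0.0787; limma adjusted p = 0.272 without the mouse block) and the anion exchanger Slc4a3 (0.56 ± 0.182, 0.0487) were higher too, and Slc4a1ap was lower (-0.43 ± 0.127). After rescaling Slc12a9 passed in addition, higher, and the limma adjusted p of Slc4a1ap was 0.133. That of Slc4a1ap was also above 0.05 without M02, M03, M11 or M20. The chloride-bicarbonate exchanger Slc26a3, above 5 TPM in the gastrocnemius only, is given as a description, at 0.41 ± 0.1.

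Of the metal carriers only Slc30a9 passed within mice, lower in the gastrocnemius at -0.25 ± 0.0507, and after rescaling it had -0.13 and a limma adjusted p of 0.124, while the metal carriers Slc41a1 and Slc48a1 passed instead, both higher. Of the fuel families only the sugar efflux gene Slc50a1 passed as deposited, at 0.29 ± 0.0931 (limma adjusted p = 0.0484). After rescaling Slc16a1 and Slc16a10 of these families passed as well, again higher. None of the 16 organic solute carriers passed as deposited, and 3 did after rescaling, Slc6a6, Slc22a23 and Slc29a2. None of the 9 carriers of internal compartments passed on either scale. The background for these counts was 29.0% of all genes as deposited and 20.9% after rescaling. At an unadjusted limma p under 0.05 there were 4 of the 16 and 2 of the 9, where the background was 41.3%. Without Slc22a23, Slc29a2 and Slc35a5, which passed the level in the gastrocnemius only, 2 and 1 were left. The creatine, taurine and lactate transporters Slc6a8, Slc6a6 and Slc16a3 were at 0.00 ± 0.0645, 0.15 ± 0.0616 and 0.01 ± 0.118 as deposited.

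In ground mice alone, tested on 3 libraries a muscle without regard to the mouse, 4 members were called, against 2.21% of all genes. Slc38a3 (1.15 ± 0.229, limma adjusted p = 0.031) and Slc12a4 (0.60 ± 0.132, 0.039) were higher in the gastrocnemius, and Slc8a1 (-0.80 ± 0.136, 0.0217) and Slc1a3 (-0.63 ± 0.115, 0.026) were lower. Any fold included, Slc12a2 and Slc35a4 passed as well, both lower, which made 6 members against 8.84% of all genes. With the mouse as a replicate block, 3 members were called, Slc38a3, Slc8a1 and Slc9a3r2, against 1.89% of all genes in that fit, and the limma adjusted p of Slc1a3 and Slc12a4 was 0.0608 and 0.0807. No member stayed called under every omission of 1 library. Without the gastrocnemius of M02 or M03, or the quadriceps of M03, 0 members were called, without the gastrocnemius of M08 or the quadriceps of M02 there were 2, and without the quadriceps of M08 there was 1. Over all genes 26.3% of the calls were higher in the gastrocnemius as deposited and 53.2% after rescaling, where Slc38a3, Slc12a4 and Slc8a1 were called (background 1.04%).

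In flight mice alone, Slc8a1 was called, lower in the gastrocnemius at -0.74 ± 0.118 (limma adjusted p = 0.0351), against 1.66% of all genes. It was also the only member past the adjusted p at any fold, where the background was 2.45%. Slc38a3 had a larger difference, 1.21 ± 0.25, with a limma adjusted p of 0.0537, and with the mouse as a block 2 members were called, Slc38a3 and Slc8a1, against 1.60% of all genes in that fit. The call of Slc8a1 was lost without the gastrocnemius of M12 or M20 or without any of the 3 quadriceps libraries (limma adjusted p of 0.085 to 0.137), and without the gastrocnemius of M11 both genes were called. Over all genes 24.7% of calls were higher as deposited and 55.4% after rescaling, where no member was called (background 0.534%) and Slc8a1 had -0.62 and a limma adjusted p just above 0.05.

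Flight was compared with ground in each muscle and on the mean of both muscles of each mouse, which is not independent of them. No member was called by limma in any of the 3 comparisons, where the background was 0.229% for the gastrocnemius, 0.0286% for the quadriceps and 0.124% for the mean. At an unadjusted limma p under 0.05 there were 10 members in the gastrocnemius (5 higher and 5 lower in flight; background 15.1%), 9 in the quadriceps (2 higher, 7 lower; 10.8%) and 11 in the mean (6 higher, 5 lower; 18.0%). Of the members, 8 were above 5 TPM only on the ground (5) or only in flight (3) and so entered the set through the condition where they were high. Slc7a10 and the lysosomal sialic acid carrier Slc17a5 are 2 of these 8 and are in the count of the quadriceps, which is 7 without them, and Slc7a10 is in that of the mean, which is 10 without it. Flight and ground libraries did not overlap for 14 members in each muscle, where the background was 21.0% and 17.4% (12 in the quadriceps without that pair). On the mean of both muscles, 18 members did not overlap (9 higher, 9 lower), or 18.2% against 24.4% (17 without Slc7a10). The median log2 fold change of the 99 genes was 0.01 in the gastrocnemius, -0.04 in the quadriceps and -0.03 in the mean, and that of all genes was 0.02, 0.01 and 0.02. A 95% interval for the flight effect lay within 1.5-fold either way for 67 members in the gastrocnemius, 62 in the quadriceps and 83 in the mean of both muscles.

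**Figure D3:**
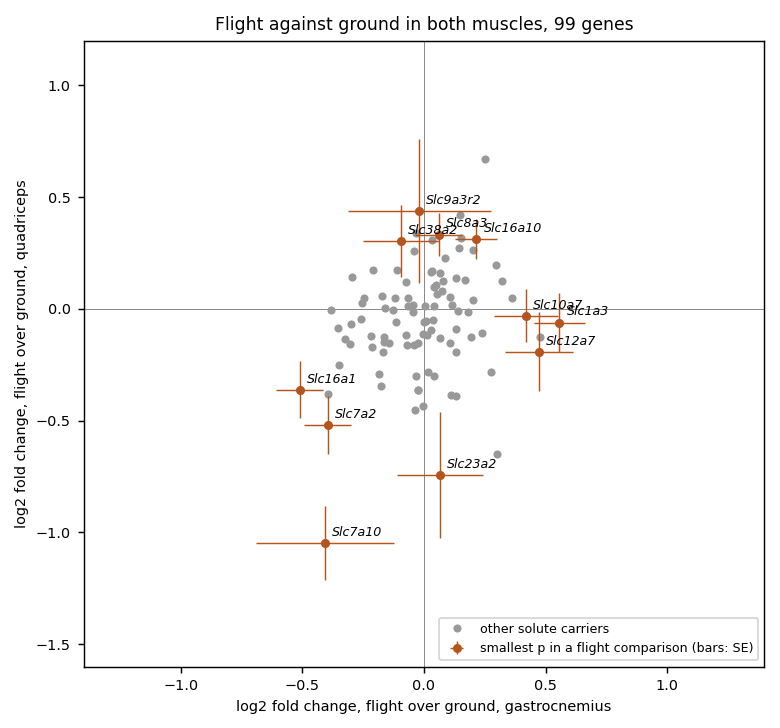
Log2 fold change of flight over ground in the gastrocnemius (horizontal) and the quadriceps (vertical) for the 99 solute carrier genes, with SE bars on 11 named genes. Slc7a2, Slc16a1 and Slc7a10 (the last above 5 TPM in ground libraries only) lie to the lower left, and Slc1a3, Slc12a7 and Slc10a7 lie to the right, at or slightly below 0 on the vertical axis.

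The arginine and lysine transporter gene Slc7a2 had the smallest p on the mean of both muscles. It had 39.5, 45.4 and 39.4 TPM in ground gastrocnemius against 30.4, 33.9 and 29.4 TPM in flight, and 41.3, 35.6 and 39.5 TPM in ground quadriceps against 22.2, 29.9 and 28.5 TPM in flight. All 6 flight libraries lay below all 6 ground libraries. The log2 fold change was -0.40 ± 0.0967 in the gastrocnemius, -0.52 ± 0.129 in the quadriceps and -0.46 ± 0.0833 in the mean, with limma adjusted p of 0.16, 0.319 and 0.0663. Over the alternative settings the last ran from 0.0397 (without mouse M11) to 0.283, so it did not pass in the full data.

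The lactate carrier gene Slc16a1 followed. In ground gastrocnemius it had 11.6, 11.3 and 12.05 TPM against 8.66, 7.48 and 7.53 TPM in flight, and in the quadriceps 10.6, 9.27 and 10.1 TPM against 7.72, 6.65 and 8.31 TPM. Here too every flight library lay below every ground library. The log2 fold change was -0.51 ± 0.0983, -0.36 ± 0.127 and -0.44 ± 0.087 in the gastrocnemius, the quadriceps and the mean, with limma adjusted p of 0.112, 0.407 and 0.0729 (0.0471 to 0.283 over the alternatives for the mean). The slow fiber marker sum was lower in flight gastrocnemius without overlap and overlapped between ground and flight in the quadriceps (values above). Of its genes, Myh7 (222 to 278 TPM on the ground, 184 to 241 in flight) and Tnnt1 (321 to 402 and 245 to 359) overlapped in the gastrocnemius. The part of slow fiber markers in the level of Slc16a1 was not tested.

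Slc7a10, an exchanger of small neutral amino acids also known as an adipocyte surface protein, was above 5 TPM in ground libraries only and so entered the set through the condition where it was high. Its flight values are therefore a description, with no test. It had 5.26, 5.76 and 5.55 TPM in ground quadriceps and 2.60, 1.76 and 2.15 TPM in flight, without overlap. In the gastrocnemius ground mice had 6.56, 2.96 and 2.78 TPM and flight mice 2.45, 3.35 and 2.24 TPM, which overlapped. The adipocyte marker sum in the quadriceps was 611, 404 and 330 TPM in ground mice and 224, 212 and 293 TPM in flight mice, also without overlap, and its part was not tested. Of the annotated words of Slc7a10, 14.9% also lie in genes on the opposite strand. The libraries were stranded, but the study's methods do not say whether the quantification used the strand.

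On the higher side in flight were Slc16a10 and Slc8a3. Slc16a10 had 23.9, 25.1 and 24.2 TPM in ground gastrocnemius and 31.0, 27.0 and 27.6 TPM in flight, and 22.3, 23.0 and 21.0 TPM in ground quadriceps and 29.3, 26.3 and 27.5 TPM in flight. No flight library overlapped a ground library, with a log2 fold change of 0.26 ± 0.0735 on the mean of both muscles and a limma adjusted p of 0.136. Slc8a3 had 38.7, 40.1 and 40.8 TPM in ground quadriceps and 46.9, 57.1 and 47.9 TPM in flight. In the gastrocnemius its values, 40.8, 39.1 and 38.1 TPM on the ground and 44.9, 36.5 and 42.2 TPM in flight, overlapped. The log2 fold change of Slc8a3 was 0.33 ± 0.0964 in the quadriceps and 0.06 ± 0.0969 in the gastrocnemius, with limma adjusted p of 0.347 and 0.801.

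In the gastrocnemius the smallest p was that of Slc1a3, the glutamate-aspartate transporter also found in glia. It had 5.65, 6.79 and 6.01 TPM on the ground and 9.17, 9.57 and 9.78 TPM in flight, a log2 fold change of 0.56 ± 0.105 with a limma adjusted p of 0.107. The quadriceps had 9.75, 9.49 and 10.9 TPM on the ground and 10.99, 9.50 and 8.37 TPM in flight, so that ground gastrocnemius stood below the other 3 groups. The Schwann cell marker sum was 229, 225 and 150 TPM in ground gastrocnemius and 184, 327 and 301 TPM in flight gastrocnemius, which overlapped, and its part was not tested. The potassium-chloride cotransporter gene Slc12a7 (0.47 ± 0.14) and Slc10a7, of the bile acid carrier family (0.42 ± 0.13), also lay higher in flight gastrocnemius without overlap, with limma adjusted p of 0.217 and 0.223.

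**Figure D4:**
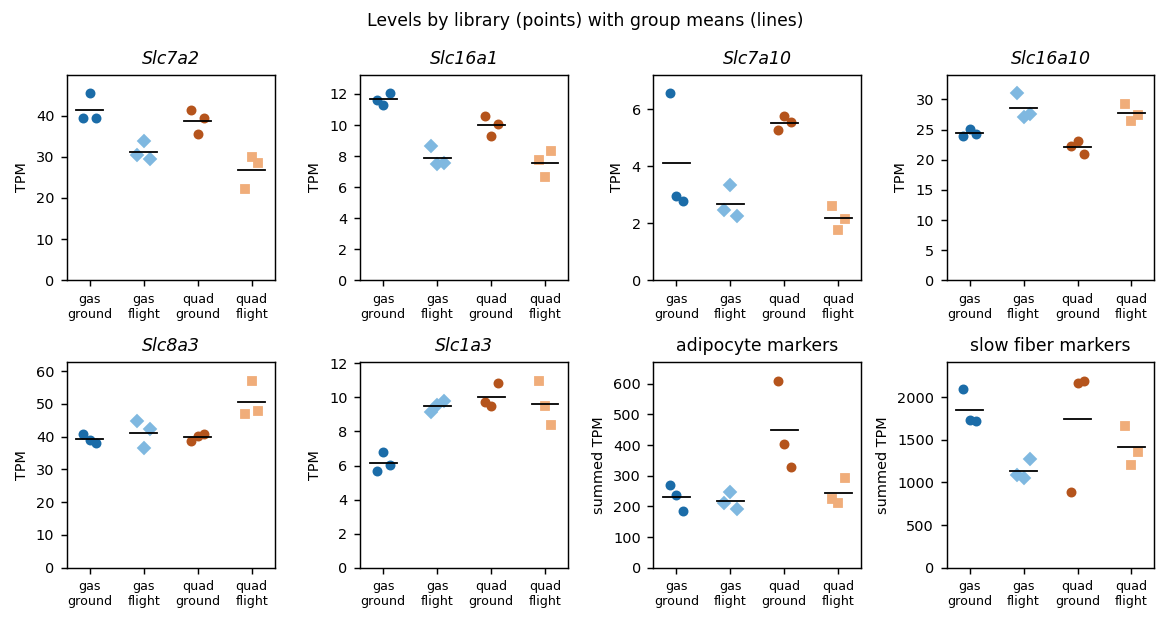
Level in TPM of 6 solute carrier genes, and summed TPM of the adipocyte and slow fiber markers, in each library (points, 3 per group) with the group mean as a line. Flight points of Slc7a2 and Slc16a1 lie below the ground points in both muscles, those of Slc16a10 above them, and the adipocyte sum is highest in ground quadriceps (330 to 611 TPM).

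Whether flight acted differently in the 2 muscles was tested as an interaction within mice. No gene of any name was called by limma (background 0%), and 8 members had an unadjusted p under 0.05 (5 with the higher flight effect in the gastrocnemius and 3 in the quadriceps; background 5.09%). Of these, Slc17a5 had passed the level in ground quadriceps only, and 7 were left without it. The smallest p belonged to the ascorbate transporter gene Slc23a2, which had 8.71, 12.3 and 20.8 TPM in ground quadriceps, 6.68, 7.45 and 8.27 TPM in flight quadriceps, 5.96, 9.52 and 9.73 TPM in ground gastrocnemius and 8.26, 9.36 and 8.39 TPM in flight gastrocnemius. The 20.8 TPM came from the quadriceps library of ground mouse M08, the one with fewest genes above 0 (18172). The interaction of Slc23a2 was 0.81 ± 0.203 with a limma adjusted p of 0.811, and 0.604 to 0.945 over the alternatives. The next was Slc1a3 with 0.62 ± 0.173 and 0.853.

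By class of family, flight effects on the mean of both muscles had a median of -0.16 for the 9 genes of fuel families (6 of 9 below 0). Among these, Slc16a1 and Slc27a1 (lower in flight) and Slc16a10 (higher) had an unadjusted limma p under 0.05. The median was 0.08 for the 23 genes of ion families (13 above 0). It was -0.05 for the 9 carriers of internal compartments (8 of 9 below 0, none at an unadjusted p under 0.05). The class follows the family number, so Slc16a10 counts under fuels, and Slc43a3 and the non-transporter Slc7a6os count under amino acids. All counts and medians by class include the members above 5 TPM in 1 condition only. Slc17a5, at -0.13, is 1 of these and lies among the compartment genes below 0, so its direction is a description. Of all genes, 45.9% lay below 0, 54.1% above 0 and 18.0% at an unadjusted p under 0.05. The medians were -0.03 for amino acid families, -0.02 for phosphate and metal families and -0.01 for organic solute families. The fatty acid transporter Slc27a1 was at -0.26 ± 0.107 with a limma adjusted p of 0.255. The creatine transporter Slc6a8 was at -0.18 ± 0.107, the taurine transporter Slc6a6 at 0.16 ± 0.0782 and the lactate exporter Slc16a3 at -0.16 ± 0.0834, each with a limma adjusted p above 0.3.

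Of 30 genes that fold, drive or feed these carriers, chosen as a list that is no part of the 99, 29 were above the level threshold. In the gastrocnemius 1 of them, Ldhb, was called lower in flight (the gene of the heart-type lactate dehydrogenase subunit; -0.65 ± 0.0784, limma adjusted p = 0.0361; background 0.229%). None was called in the quadriceps or on the mean of both muscles by limma, where 3 and 4 had an unadjusted p under 0.05 (background 10.8% and 18.0%). Between the muscles within mice, 15.9% of all genes passing an adjusted p of 0.05 were higher in the gastrocnemius as deposited, and 47.6% after rescaling. The 29 are given as deposited only, where 12 passed that adjusted p, 3 higher and 9 lower in the gastrocnemius, against 29.0% of all genes. Of these, 1 was over 1.5-fold and called, the cysteine dioxygenase gene Cdo1 of taurine synthesis, lower in the gastrocnemius (-0.69 ± 0.163, limma adjusted p = 0.0156). The other lower ones included Bsg, the chaperone of monocarboxylate carriers (-0.55 ± 0.0694, limma adjusted p = 0.00166), and Wnk1, a kinase upstream of the chloride cotransporters (-0.54 ± 0.0737, 0.00193), and the higher ones Atp1b1, a sodium pump subunit (0.54 ± 0.0774, 0.0023). The carbonic anhydrase gene Car3 was higher at 0.46 ± 0.0433 (0.000664). The adipocyte marker sum was 269, 237 and 185 TPM in ground gastrocnemius against 611, 404 and 330 TPM in ground quadriceps. In flight mice M11, M12 and M20 it was 211, 247 and 191 TPM against 224, 212 and 293 TPM. Its part in the difference of Cdo1 was not tested.

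Splicing of members was read from junction counts as percent spliced in (PSI), the share of reads, per effective length, that include an exon. Each muscle's lists held 20 skipped or mutually exclusive exon events in 9 members, of which 15 in the gastrocnemius and 18 in the quadriceps had enough reads and were tested. No member event was called by limma at an adjusted p of 0.05, against 0.378% of all events for the gastrocnemius and 0% for the quadriceps. Over all genes this test called 8 events in the gastrocnemius and 0 in the quadriceps. Both are fewer than the paper reports from rMATS-turbo, so the lack of a call does not show unchanged splicing. At an unadjusted p under 0.05 there were 2 of the 15 member events in the gastrocnemius, where the background was 9.49%, and 2 of the 18 in the quadriceps, where it was 7.76%. The lists do not name their samples, so values stand in list order and cannot be matched to mice.

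For Slc8a3, PSI in the mutually exclusive event is the share of the 107-base exon against the 104-base exon printed above. In ground gastrocnemius it was 66.7% (22 and 11 reads for the exon pair), 64.0% (16 and 9) and 79.2% (19 and 5). In flight gastrocnemius it was 55.6% (20 and 16), 43.5% (10 and 13) and 50.9% (29 and 28), below all ground values. The difference was -19.97 percentage points with a limma adjusted p of 0.562 (0.455 to 0.717 over the alternatives), and -20.9 with 0.523 in a version of the event with another downstream exon. Inclusion of the 107-base exon on its own was 60.0%, 46.7% and 79.3% on the ground and 39.5%, 41.7% and 35.3% in flight (-23.2 points, limma adjusted p = 0.571), from partly the same reads. In the quadriceps the mutually exclusive event gave 65.2%, 41.0% and 100% on the ground (the last from 5 and 0 reads) and 62.5%, 61.1% and 65.0% in flight, which overlapped. With 3 samples against 3, an exact permutation test cannot give a two-sided p below 0.1. The 18-base exon had too few reads to be tested, with 6 to 17 reads a sample in the gastrocnemius.

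**Figure D5:**
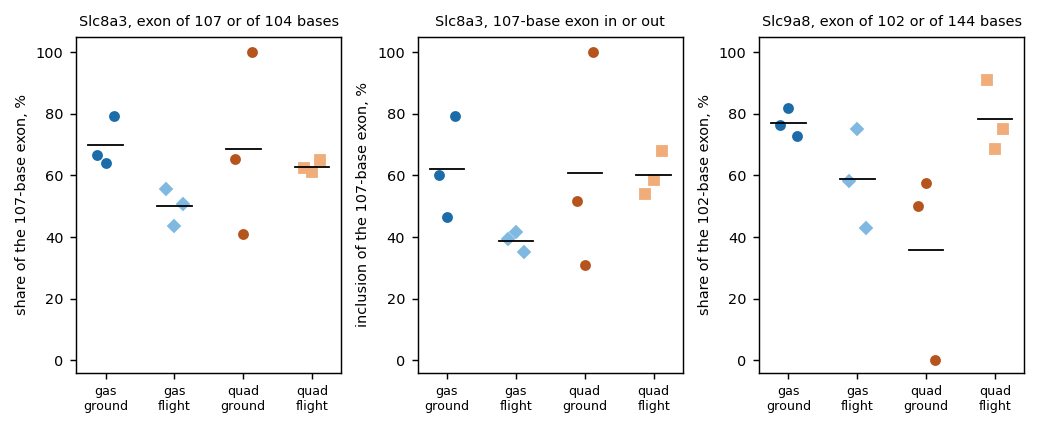
Percent of junction reads, per effective length, for the first exon of a mutually exclusive pair in Slc8a3 (left) and Slc9a8 (right) and for inclusion of the 107-base exon of Slc8a3 (middle), 1 point per sample with the group mean as a line. In the gastrocnemius the flight points of both Slc8a3 panels lie below the ground points, while in the quadriceps they overlap.

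The other events of small p rested on few reads as well. In Slc9a8, the exon of 102 bases against that of 144 bases took 50%, 57.7% and 0% in ground quadriceps (the last from 0 and 26 reads) and 90.9%, 68.8% and 75.0% in flight, a difference of 42.3 points with a limma adjusted p of 0.637. Without the ground sample at 0% the difference was 24.4 points, and without each of the other samples in turn it was 36.0 to 53.2 points. In the gastrocnemius the same event gave 76.5%, 81.8% and 72.7% on the ground and 58.3%, 75.0% and 42.9% in flight, the other way. In Slc43a3, an exon of 130 bases against that of 47 bases took 88.0%, 52.4% and 63.8% in ground gastrocnemius and 22.7%, 42.4% and 46.5% in flight, from 13 to 28 reads a sample (limma adjusted p = 0.522). In the quadriceps this event gave 49.5% and 43.9% on the ground, where 1 sample had 0 reads. In flight quadriceps it gave 41.2%, 54.0% and 74.6%. The difference of 9.89 points, the other way, leaves out the ground sample of 0 reads. The fit kept that sample through the 0.5 added to each count, so its limma adjusted p of 0.917 does not belong to that difference. Inclusion of the 48-base exon of Slc12a2 in the quadriceps was 100%, 100% and 89.6% on the ground and 79.8%, 88.7% and 82.8% in flight, from 33 to 72 reads a sample (-12.8 points, limma adjusted p = 0.538). In Slc4a1ap, the exon of 112 bases against that of 244 bases took 81.8%, 93.3% and 100% in ground quadriceps and 64.0%, 66.7% and 66.7% in flight (-25.9 points, limma adjusted p = 0.636).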

How the data were processed

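Poly(A) RNA of 12 muscle samples had been sequenced from stranded libraries. According to the methods and the submitters' processing notes, the authors quantified transcripts with kallisto 0.46.0, summed them to genes with tximport and deposited TPM values, 1 column per sample. For splicing, reads were aligned to mm10 (GRCm38) with STAR 2.7.1a, and rMATS-turbo tables of skipped and mutually exclusive exons were deposited per muscle, in which comma-joined lists hold the junction reads for and against an exon. The p-values, FDR and PSI difference columns of those tables hold the authors' own comparison and were not used, nor could their count model (DESeq2 1.26.0) be run on TPM. No per-sample column was left unassigned (0 columns of other series). TPM hold no read counts, and the read depth stated in the study's methods was not used here, so no counting interval is given.

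Genes above 5 TPM in at least 1 library (10481) were tested on log2(TPM + 1) with limma 3.58.1 (R 4.3.3; moderated variances with a trend), with Benjamini-Hochberg adjustment over all of them. Called means an adjusted p under 0.05 and over 1.5-fold. Flight was compared with ground per muscle and on the mean of both muscles of a mouse, and the muscles were compared per condition without a block, and over all 6 mice with the mouse as a block. The same animal gives both muscles, which pairs those samples; the deviations of a mouse's muscles correlated at r = 0.0943, 0.0142 and 0.163 on the ground and 0.333, 0.179 and -0.119 in flight. Junction events needed a mean of over 10 reads, had 0.5 added to each count, and were tested on the logit of PSI with limma, with a call at 0.05 for the adjusted p and a PSI difference above 0.05. Shared 31-base words were counted over GENCODE vM21 transcripts, from which exons were also read. The fits were tested on simulated data.

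Members and lists were chosen with earlier results of these data known. Genes named are called members, those of smallest p per comparison, the 25 of highest mean, the highest of each family and a list of well-known muscle transporters; a few others (Slc2a8, Slc7a6, Slc7a11, Slc12a9, Slc22a23, Slc26a10, Slc29a2, Slc35a5, Slc36a2, Slc39a1, Slc39a13, Slc41a1) were added after their values were seen. Some members are not reported here. Alternatives were pseudocounts of 0.5 and 0.1, a filter at 1 TPM or none, median-ratio rescaling, no variance trend, all libraries in 1 fit, a replicate block, and leaving out each library or mouse.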

Additional observations from a re-analysis of the deposited data

How the results depend on the processing

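None of the genes and events recomputed under the alternatives changed sign, but rescaling turned the majority of the calls between the muscles over all genes, from lower to higher in the gastrocnemius (34.1% to 64.6% higher within mice). Within mice, Slc38a3 and Slc8a1 were called under all 13 alternatives (limma adjusted p of 0.000428 to 0.00652 and 0.000198 to 0.00652), and the number of members called was 5 after rescaling and 2 to 5 without 1 mouse. For the muscles of ground mice, the genes called numbered 57 with no filter, 109 rescaled, 139 without the variance trend, 198 with the replicate block and 0 to 220 without 1 library; the members called numbered 2 with the filter at 1 TPM, 0 with no filter, 2 without the trend and 0 to 2 without 1 library. For flight mice the genes called numbered 29 with the filter at 1 TPM, 10 with no filter, 56 rescaled, 59 without the trend, 320 with all 12 libraries in 1 fit, 168 with the replicate block and 12 to 280 without 1 library; members numbered 0 in the first 4 of these settings, 3 with all libraries, 2 with the replicate block and 0 to 2 without 1 library.

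For flight in the gastrocnemius, 24 genes were called, against 4 with the filter at 1 TPM, 4 with no filter, 5 without the trend, 0 with the replicate block and 1 to 133 without 1 library. In the quadriceps there were 3, against 1 with the filter at 1 TPM, 1 rescaled, 1 without the trend, 0 with the replicate block and 1 to 4 without 1 library. Replicate numbers of ground and flight samples belong to different mice and do not pair them (r = -0.143 to 0.111 and -0.18 to -0.0653). On the mean of both muscles there were 13, against 6 with a pseudocount of 0.1, 3 with the filter at 1 TPM, 0 with no filter, 32 rescaled, 0 without the trend, 3 with the replicate block and 0 to 134 without 1 mouse. For the interaction there were 0, against 2 with no filter and 0 to 1 without 1 mouse. Events called in the gastrocnemius numbered 8, against 12 with 1 added to each junction count and 1 to 9 without 1 sample. The causes were not tested. The splicing comparisons set different mice against each other, so no samples were paired, and the junction lists carry no sample names. Each group held 3 mice, and a member that was not called may still have differed by less than its interval shows.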

Other observations

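Summed by family, members of family 38 held the most TPM, 18.4% of the sum over the 99 genes, with 368 ± 58.4 TPM in ground gastrocnemius, 333 ± 2.87 in flight gastrocnemius, 303 ± 21.8 in ground quadriceps and 313 ± 11.9 in flight quadriceps (SD, n = 3). Slc38a6, whose level is uncertain because of words shared with other genes, held 58.3% of that, and the other members of the family held 7.66% of the sum over the 99. Families 44, 16, 6 and 30, which carry choline-like solutes, monocarboxylates, taurine and creatine, and zinc, held 6.36%, 6.30%, 6.13% and 6.00%. The exchangers of family 8 summed to 48.3 ± 1.17, 50.2 ± 4.73, 56.2 ± 3.04 and 66.3 ± 4.55 TPM in the same order of groups. These sums were not tested.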
